A study of Mus musculus with 8 samples.

Results

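The genes described here are 40 regulators and effectors of cell division, from the D-type cyclins that start the cycle to the proteins that build the mitotic spindle. They were chosen by name, with earlier results of these data known. Every row of the deposited peak table assigned to one of the 40 symbols was taken. The table held 58522 accessible regions (peaks) assigned to 17780 genes, and 146 of these peaks belonged to 38 of the 40 genes. No peak carried the name of Aurka, a spindle kinase, or Foxm1, a transcription factor of late-cycle genes, so neither could be described.

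The data are ATAC-seq libraries of liver sinusoidal endothelial cells (LSEC), the lining of the liver's capillaries. ATAC-seq cuts open chromatin with the Tn5 transposase, so the number of reads in a region measures how accessible its DNA was. Control and MafLSEC-KO mice, 12 weeks old, were compared, with 4 libraries in each group, named below by group and replicate number (control 1 to control 4, MafLSEC-KO 1 to MafLSEC-KO 4). MafLSEC-KO mice carried 1 copy of the Clec4g-iCre transgene and loxP-flanked (floxed) Maf on both chromosomes (Clec4g-iCre tg/wt, Maf fl/fl). Controls were Cre-negative littermates (Clec4g-iCre wt/wt) with Maf fl/fl or Maf fl/wt, so floxed Maf was present in both groups and the transgene in the MafLSEC-KO group alone. Cre was driven by Clec4g, a gene of sinusoidal endothelium. Cells were purified with beads against CD146, which larger liver vessels carry too. The labels name 3 mice and the methods describe pooled livers, and which animals went into which library is not given. The p-values therefore reflect how libraries vary, and part of that variation may be technical.

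The 4 control libraries held 5.37 to 13.36 M reads in peaks and the 4 MafLSEC-KO libraries 6.78 to 11.61 M. The promoter peak of Maf, the targeted gene, held 314, 558, 360 and 1088 reads in controls 1 to 4 and 125, 124, 131 and 98 in MafLSEC-KO 1 to 4, a log2 fold change of -2.42 (standard error 0.188, adjusted p = 2.37e-07 by edgeR). Every library therefore matched its label. All 12 endothelial markers listed had peaks. Among them Stab2 fell (log2 -0.65) and Lyve1 fell (log2 -0.72), both scavenger or hyaluronan receptors of LSEC. Clec4g, the gene that the transgene is named for, rose (log2 1.68). Whether reads from the transgene add to its count was not tested. The Lyve1 groups overlapped, with control 1 at 51.9 and MafLSEC-KO 4 at 53.2 CPM (read counts scaled for library size, per 1 M reads). The other 9 did not pass, and the median log2 fold change of the 12 was -0.01. Of 49 listed markers of macrophages, lymphocytes, hepatocytes, stellate cells and cholangiocytes, 27 had peaks. Only Cldn4, a tight junction gene on the cholangiocyte list, passed the test by edgeR and by DESeq2 (log2 0.70). None of the 27 was called lower by either tool, and 3 were lower at an unadjusted p under 0.05. Summed over its 8 measured genes, the macrophage list held 131 to 180 CPM in controls and 129 to 169 in MafLSEC-KO. The 3 measured lymphocyte genes held 72.1 to 122 and 58.2 to 78.3, and the defining marker Cd3e had no peak. The part of these cells in the results below was not tested. In bulk samples, a change in the share of cells with an open site and a change in how open it is in each cell cannot be told apart.

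Cells enter the cycle when D-type cyclins activate CDK4 and CDK6, which release E2F factors from the retinoblastoma proteins. E2F factors then raise the genes of S phase, in which DNA is copied, while CDK inhibitors hold the kinases back. The genes of mitosis, when chromosomes are divided, are switched on later through promoter elements called CHR and CCAAT box. Most adult LSEC are quiescent, and a promoter may be accessible in a resting cell whose gene is silent.

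The sequences shown first are the upstream stretch of 2 promoters that the results turn on, Plk1, which rose at its promoter, and Mki67, whose peak at the start did not pass the test. Each holds the 250 bases before the RefSeq start (table build GRCm38.p6, the assembly of mm10) on the strand of the gene, at chr7:122159185-122159434 (plus strand) for Plk1 and chr7:135716380-135716629 (minus strand) for Mki67. Capitals mark matches on either strand to the letters searched. These were the CHR (TTTGAA), the CCAAT box (CCAAT) and an E2F site (TTCCCGC and its variants TTGGCGC or else TTGCCGC or else TTCGCGC). The others were a single arm of a MAF recognition element or MARE (TGCTGAC), an AP-1 site or TRE (TGACTCA) and the GC box (GGGCGG).
Plk1 promoter: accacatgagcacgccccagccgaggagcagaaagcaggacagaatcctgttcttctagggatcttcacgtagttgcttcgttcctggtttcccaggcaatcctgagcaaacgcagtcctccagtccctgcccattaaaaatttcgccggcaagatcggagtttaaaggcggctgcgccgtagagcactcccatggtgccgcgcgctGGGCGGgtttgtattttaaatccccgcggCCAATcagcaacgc
Mki67 promoter: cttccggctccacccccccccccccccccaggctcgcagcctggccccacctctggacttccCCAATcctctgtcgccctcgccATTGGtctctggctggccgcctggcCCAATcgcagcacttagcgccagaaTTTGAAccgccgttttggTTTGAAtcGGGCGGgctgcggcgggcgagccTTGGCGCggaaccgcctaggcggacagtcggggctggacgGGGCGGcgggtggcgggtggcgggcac

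The Plk1 stretch held 1 CCAAT box, which started 14 bases before the transcription start, and 1 GC box. The Mki67 stretch held 2 CHR letters, 3 CCAAT boxes, 1 E2F match and 2 GC boxes. Of the 40 genes, 31 were found in the promoter table, and a gene was counted when any of its listed starts matched. The share of all promoters counts each start singly, so members with more than 1 listed start had more chances to match. Among these 31 genes, 24 held a CCAAT box (77.4%), against 33.9% of all 32841 promoters. An E2F match stood in 13 (41.9%, against 7.89% of all promoters), a CHR in 8 (25.8%, against 16%) and a GC box in 25 (80.6%, against 32.7%). The MARE arm stood in 2, Bub1 and E2f2 (6.45%, against 3.81%), and the TRE in none of the 31 (4.46% of all). These are matches of letters, which do not show that a factor was bound.

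The distal sequences are the 200 bases about the centre of 7 peaks that changed between the groups, on the plus strand of GRCm38.p6. The first 4 were more accessible in MafLSEC-KO and the last 3 less accessible. They lie at chr12:24746985-24747184 (Rrm2), chr13:29926125-29926324 (E2f3), chr7:135794130-135794329 (Mki67), chr7:145030958-145031157 (Ccnd1), chr10:110760672-110760871 (E2f7), chr5:3146741-3146940 (Cdk6, upstream) and chr5:3369440-3369639 (Cdk6, intron). No UTR in GENCODE vM21 overlaps them. The 7 are part of the 24 called peaks, and both lower peaks with a MARE arm in the centre are among them. The printed set therefore does not show how often lower peaks held that arm, and the counts over all called peaks are given below. The lower Cdk6 peak 15.6 kb downstream is not printed, and its central 200 bases held none of the letters searched.
Rrm2 peak, 38.8 kb downstream of the start: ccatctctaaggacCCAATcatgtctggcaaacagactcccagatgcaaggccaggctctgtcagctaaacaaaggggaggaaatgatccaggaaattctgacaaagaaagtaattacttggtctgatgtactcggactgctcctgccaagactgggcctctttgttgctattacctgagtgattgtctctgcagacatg
E2f3 peak, 58.2 kb downstream: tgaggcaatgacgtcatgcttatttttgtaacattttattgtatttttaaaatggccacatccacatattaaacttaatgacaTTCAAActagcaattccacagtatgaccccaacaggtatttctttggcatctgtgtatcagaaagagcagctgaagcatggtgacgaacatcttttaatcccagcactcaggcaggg
Mki67 peak, 77.8 kb upstream: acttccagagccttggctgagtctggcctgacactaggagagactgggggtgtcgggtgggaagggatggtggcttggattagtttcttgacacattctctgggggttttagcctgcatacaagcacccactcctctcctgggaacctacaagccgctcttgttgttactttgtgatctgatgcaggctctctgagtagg
Ccnd1 peak, 91.1 kb upstream: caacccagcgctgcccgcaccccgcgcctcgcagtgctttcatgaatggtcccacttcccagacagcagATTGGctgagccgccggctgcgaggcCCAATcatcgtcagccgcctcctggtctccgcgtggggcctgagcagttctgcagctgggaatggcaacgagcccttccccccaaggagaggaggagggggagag
E2f7 peak, 15.3 kb downstream: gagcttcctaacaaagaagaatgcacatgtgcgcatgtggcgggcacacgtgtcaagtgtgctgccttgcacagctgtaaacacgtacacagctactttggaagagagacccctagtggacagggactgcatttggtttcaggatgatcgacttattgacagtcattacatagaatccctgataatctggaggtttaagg
Cdk6 peak, 197.1 kb upstream: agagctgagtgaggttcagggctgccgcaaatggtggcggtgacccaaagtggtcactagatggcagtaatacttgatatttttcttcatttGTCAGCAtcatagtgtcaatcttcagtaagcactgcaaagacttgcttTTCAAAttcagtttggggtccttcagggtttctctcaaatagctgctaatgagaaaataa
Cdk6 peak, 25.6 kb downstream: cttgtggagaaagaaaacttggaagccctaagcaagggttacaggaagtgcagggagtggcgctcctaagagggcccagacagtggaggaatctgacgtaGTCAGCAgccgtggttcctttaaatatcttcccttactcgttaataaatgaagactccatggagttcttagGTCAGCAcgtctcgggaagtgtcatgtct

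Capitals again mark the letters searched. The MARE arm was found in the centre of 2 of the 9 member peaks called lower in MafLSEC-KO, both at Cdk6. One had a single match at base 93 of the window, and the other had matches at bases 101 and 172. It was found in none of the 15 member peaks called higher, in 4 of all 146 member peaks and in 4.16% of all 58520 windows that could be read. The TRE was found in 2 of the 15 higher peaks and 1 of the 9 lower peaks, against 6.14% of all windows.

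Summed over all peaks of a gene, the accessibility of 4 members rose in MafLSEC-KO and that of 1 fell. The 4 were Rrm2, Plk1, Mki67 and Ccnd1, and the 1 was Cdkn1c. Of 38 members tested, 10.5% were called higher, beside 5.65% of the 17745 genes tested, and 2.63% were called lower, beside 4.05% (edgeR quasi-likelihood test, adjusted p under 0.05 over all genes). The median log2 fold change was 0.06 over the members and -0.02 over all genes. The libraries of the 2 groups did not overlap for 6 members, 4 with all MafLSEC-KO libraries above all controls, beside 9.04% of genes, and 2 below, beside 7.18%. A fit with the replicate number as a block called 6 members higher and 4 lower, beside 12.2% and 10.8% of all genes. Leaving out control libraries 1 and 3, the shallowest libraries, left 3 higher and 1 lower, beside 9.15% and 7.26%. The number called higher was 2 without control 2 or MafLSEC-KO 1, 2 or 3, and 6 without control 4. Over all genes the same fits called 502, 612, 521 and 602 higher, and 1471 without control 4, against 1002 with every library. The number of members called lower was 0 without control 2 or any 1 of the MafLSEC-KO libraries, and 3 without control 4. Over all genes these fits called 401 to 591 lower, and 1356 without control 4, against 718 with every library.

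**Figure D1:**
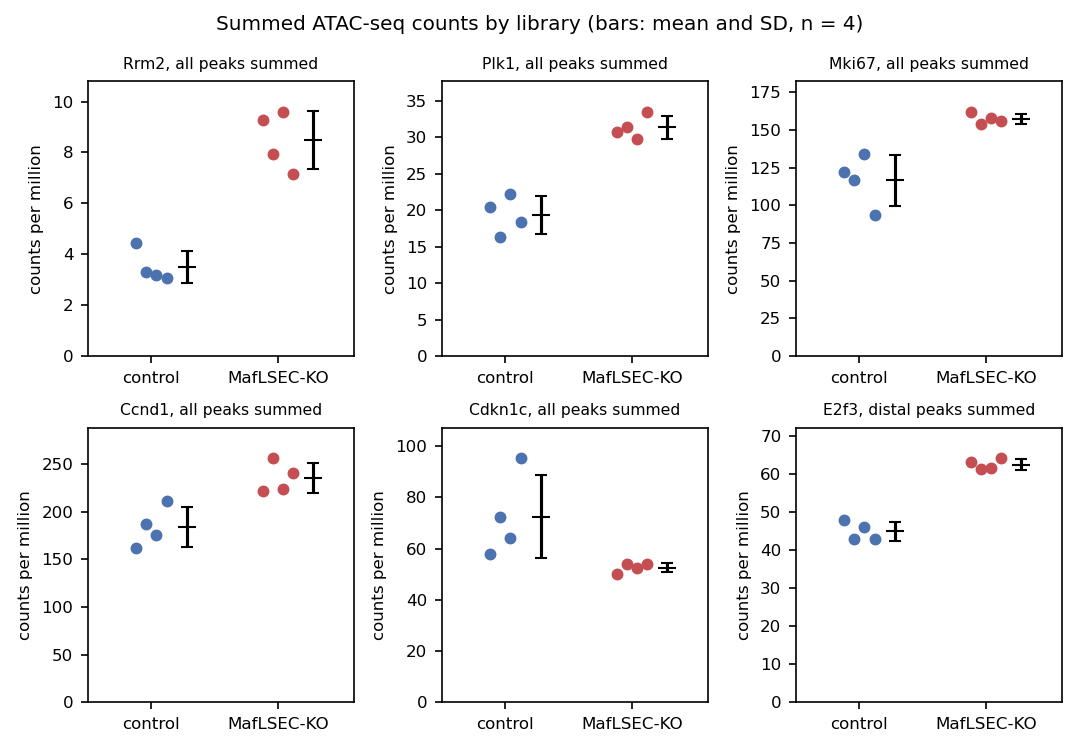
Level in CPM in each library for the 5 members whose summed peaks were called and for the distal sum of E2f3, with control libraries in blue, MafLSEC-KO libraries in red and the mean and SD of 4 libraries in black. In every panel the groups do not overlap, and the Cdkn1c controls run from 58.1 to 95.2.

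The sums mix promoter peaks with others, so each gene's peaks were split by the class that HOMER gave them. Of the member peaks, 29 at 28 genes were in the promoter class and 117 were not, and the latter are called distal here, although some lie in a 5′ UTR or intron close to the start. Promoter sums could be tested for 28 members. Only Plk1 was called higher, 3.57% beside 3.55% of the 7549 genes with a promoter sum, and no member was called lower, beside 0.98%. DESeq2 also called none lower and 2 higher, and at an unadjusted p under 0.05 edgeR had 6 higher and 2 lower. Shares over all promoter sums are not given for DESeq2 or for the unadjusted p. Under the replicate block, 5 members rose (beside 11.2%) and 2 fell (beside 3.74%). The added calls were Ccnd1 (log2 0.45, adjusted p = 0.0169), E2f1 (0.31, adjusted p = 0.0205), E2f7 (0.33, adjusted p = 0.00891) and Ccne2 (0.36, adjusted p = 0.00418) upward, with Ccnd2 (-0.24, adjusted p = 0.0233) and E2f2 (-0.54, adjusted p = 0.0412) downward, all by edgeR. Taking as promoter any peak within 1000 bases of the start brought in 36 members and again called Plk1 alone, beside 4.36% of genes higher and 1.22% lower. Without control 4 the promoter calls numbered 4 higher, and without MafLSEC-KO 4 they numbered 2, with no share over all genes given for these fits.

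Distal sums could be tested for 27 members. Rrm2, E2f3, Mki67 and Ccnd1 rose, 14.8% beside 8.19% of the 15110 genes tested, and Cdkn1c fell, 3.70% beside 5.49%. The replicate block gave 4 higher and 3 lower, beside 15% and 12.1%, with E2f8 (log2 -0.33, edgeR adjusted p = 0.00377) and Cdk6 (-0.24, edgeR adjusted p = 0.0173) added. The number called lower was 4 without control 4, and 0 without control 2 or any 1 of the MafLSEC-KO libraries. Shares over all genes are not given for these fits.

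**Figure D2:**
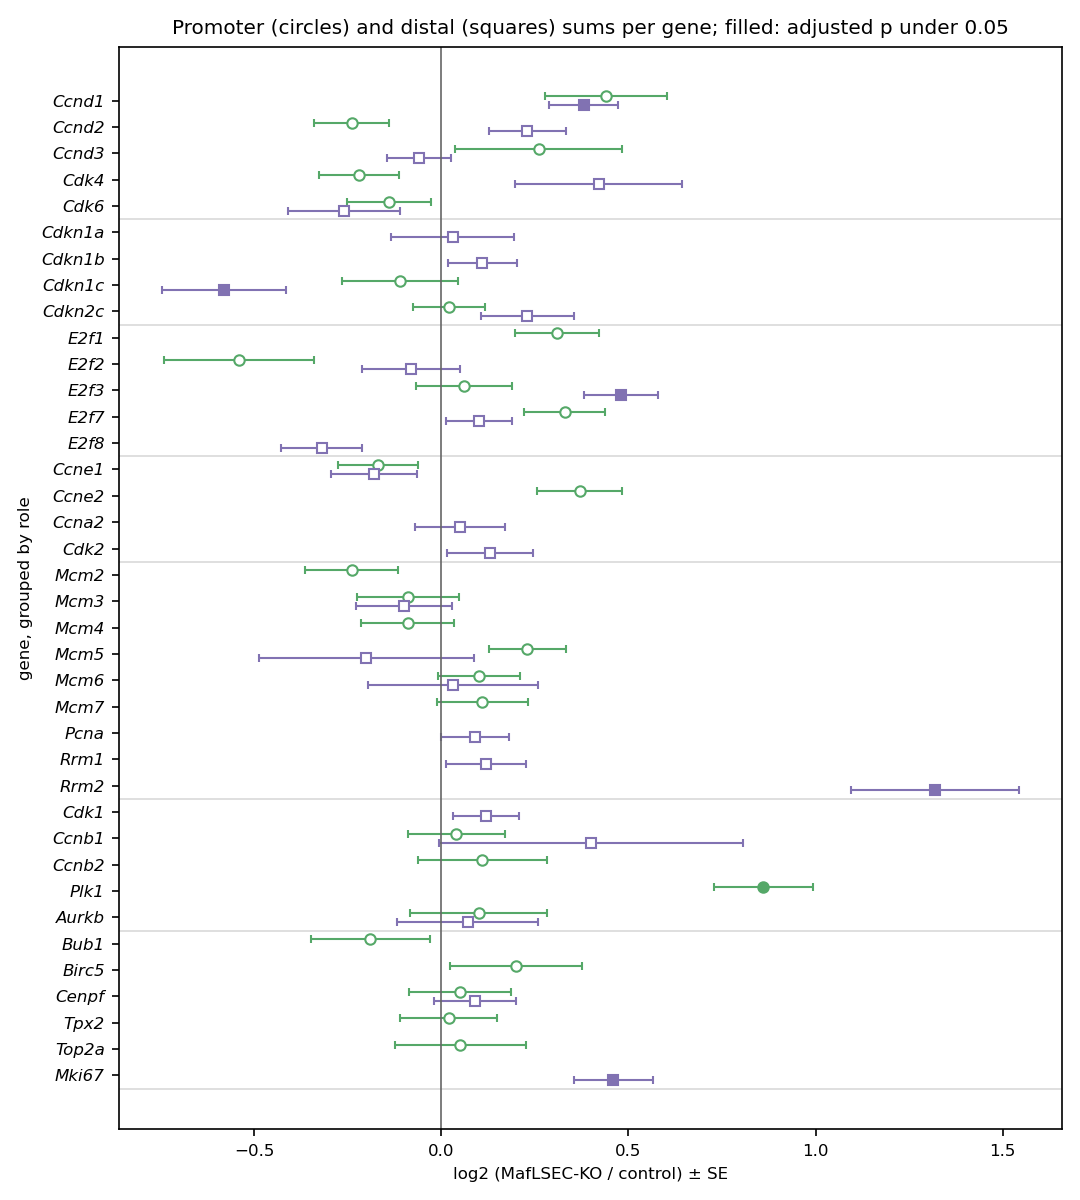
Log2 fold change of MafLSEC-KO over control with its standard error for the promoter sum (circles) and the distal sum (squares) of each member, grouped by role from D-type cyclins at the top to spindle and chromosome proteins at the bottom, with filled marks past the edgeR threshold. Plk1 is the only filled promoter mark, at 0.86, and the filled distal marks are Rrm2, E2f3, Mki67 and Ccnd1 on the right and Cdkn1c on the left.

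Promoter and distal change were then compared directly, as the log2 ratio of the 2 sums within each library. Of 18 members with both sums, Plk1 was called toward its promoter, 5.56% beside 11.3% of 4935 genes, and Ccnd2, Cdk4 and E2f3 moved toward their distal peaks, 16.7% beside 7.15% (limma). Under the block 2 moved toward the promoter and 3 away from it, beside 16.2% and 9.75%. Cdkn1c was the member added, with a log2 ratio difference of 0.44 (limma adjusted p = 0.0237). Taking as promoter any peak within 1000 bases of the start gave both sums to 23 members. Of these, 2 were called toward the promoter, both mitotic entry regulators, and 4 away from it. Mki67 entered in this way and was 1 of the 4, with a log2 ratio difference of -0.47. No share over all genes is given for that fit. The Plk1 ratio rests on a distal peak of 1 to 20 reads per library, highest in control 1, and its call is no support for a shift toward the promoter. The number moving away from the promoter was 1 without control 2 or MafLSEC-KO 1 or 4, and 2 without control 3 or MafLSEC-KO 2. For these fits, too, no share over all genes is given.

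At single peaks, 144 of the 146 could be tested. Of these, 15 were called higher, 10.4% beside 8.97% of the 58268 peaks tested, and 9 were called lower, 6.25% beside 6.45%, so the members' shares lay close to those of all peaks. The 24 called peaks belonged to 14 members. Over all 144, the MafLSEC-KO libraries lay wholly above the controls in 17 peaks, beside 11.2% of all peaks, and wholly below in 11, beside 8.28%. The block called 27 higher and 15 lower, beside 14.2% and 10.7%. Without control libraries 1 and 3 the counts were 18 and 11, beside 11.7% and 9.56%. The number called higher was 8 without control 2, 9 without MafLSEC-KO 2 and 8 without MafLSEC-KO 3. The number called lower was 3 without control 2, 3 without MafLSEC-KO 2 and 4 without MafLSEC-KO 4. Counts over all peaks are not given for fits that leave out 1 library. Of the 24, 10 stayed past the threshold under each of 14 alternatives, namely 2 each at E2f3, Cdk6 and Mki67 and 1 each at E2f7, Rrm2, Plk1 and Ccnd1.

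By position, 3 of the 39 member peaks within 1000 bases of a start were called higher and none lower, where 6.03% and 1.75% of all such peaks were. Between 1000 and 50000 bases, 7 of 78 rose, where 8.87% of all such peaks did, and 7 fell, where 7.18% did. Beyond 50000 bases 5 of 27 rose and 2 fell, beside 11.8% and 8.84%. HOMER names each peak for its closest start, which need not be the gene it acts on.

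**Figure D3:**
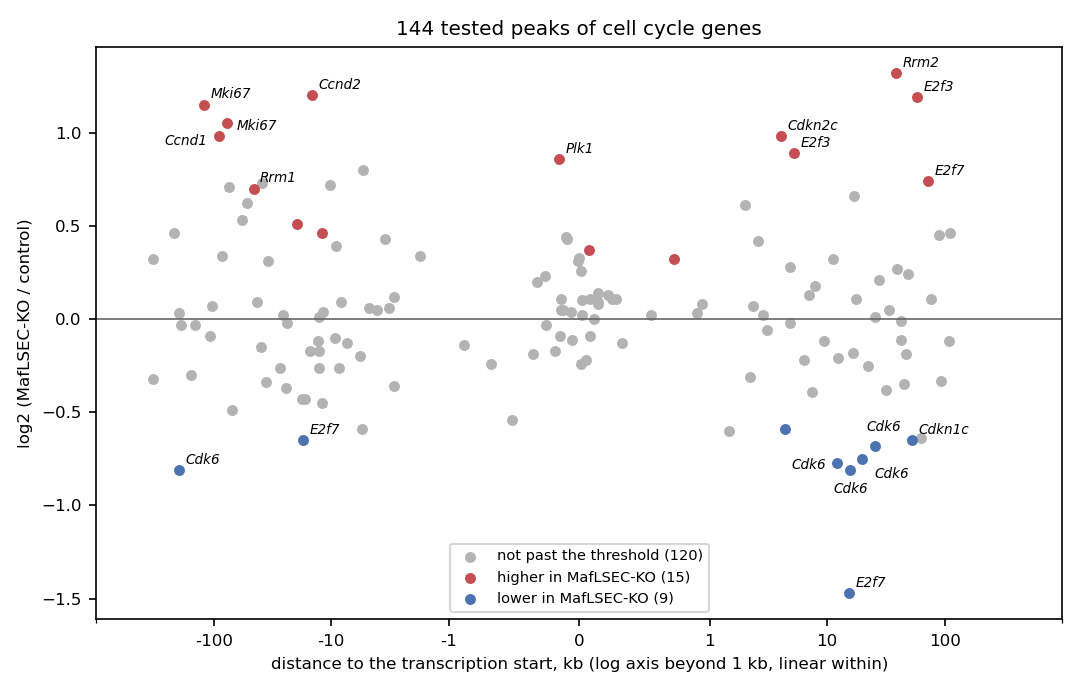
Log2 fold change of each of the 144 tested member peaks against its distance to the transcription start in kb, on an axis that is logarithmic beyond 1 kb, with peaks called higher in red, called lower in blue and the rest in grey. The largest changes lie far from the start, with Rrm2 at 1.32 and E2f7 at -1.47, and Plk1 at 0.86 is the largest within 1 kb.

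Among the D-type cyclins and their kinases, Ccnd1 rose, and the others did not pass the test when their peaks were summed. Ccnd1 (ENSMUSG00000070348), which encodes cyclin D1, had 11 peaks. Their sum was 162, 187, 176 and 211 CPM in controls 1 to 4 and 222, 256, 224 and 241 in MafLSEC-KO 1 to 4. All MafLSEC-KO libraries lay above all controls, by a narrow margin at control 4. The log2 fold change was 0.36 (standard error 0.0930, adjusted p = 0.0278 by edgeR). It held without control 4, and the call was lost when any other library was left out, with a log2 fold change of 0.30 to 0.43 and an adjusted p as high as 0.143.

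The distal sum of Ccnd1 gave 0.38 (standard error 0.0929, adjusted p = 0.0156 by edgeR) and lost its call without MafLSEC-KO 2 (adjusted p = 0.0702) and without both control libraries 1 and 3. Its promoter peak went from 15.9 ± 3.0 (SD, n = 4) to 21.8 ± 2.59 CPM, and the groups overlapped. One peak was called alone, an intergenic region at chr7:145030656-145031459, 91.1 kb upstream, which held 17.3, 16.2, 18 and 21.2 CPM in controls and 33.5, 39.1, 36.7 and 34.2 in MafLSEC-KO. The lowest MafLSEC-KO library stood well above the highest control. Its log2 fold change was 0.98 (standard error 0.139, adjusted p = 8.64e-05 by edgeR). The 10 other peaks did not pass, with log2 fold changes from -0.31 to 0.73.

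Ccnd2, which encodes cyclin D2, shifted from its promoter toward its distal peaks. The promoter share of its counts was 64.6%, 67.5%, 66.5% and 63.1% in controls and 58.0%, 59.1%, 57% and 57.1% in MafLSEC-KO. The shares did not overlap, and the log2 ratio differed by -0.47 (standard error 0.111, adjusted p = 0.0027 by limma), past the threshold under all 14 alternatives. Neither sum passed alone, the promoter at -0.24 and the distal sum at 0.23. Upstream peaks 14.7 kb and 11.9 kb away rose by log2 1.20 (edgeR adjusted p = 0.0411) and 0.46 (edgeR adjusted p = 0.0493). The first held 0.828 to 1.82 CPM in controls, and each lost its call when libraries were left out in turn, with adjusted p up to 0.167 and 0.195.

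Cdk4, a kinase partner of the D-type cyclins, had a promoter share of 87.4%, 89.8%, 92.5% and 87.8% in controls and 82.5%, 82.5%, 86.8% and 84.5% in MafLSEC-KO. The log2 ratio differed by -0.66 (standard error 0.223, adjusted p = 0.0351 by limma). The call was lost without control 2 or 3 or MafLSEC-KO 1, 2 or 4 (adjusted p up to 0.116), and its 1 distal peak held 600 reads over 8 libraries.

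Cdk6, the other partner kinase, had the most peaks of any member, 17, and 5 of them fell while none rose. The intronic peak 15.6 kb downstream of the start, at chr5:3358826-3360089, held 21.4, 18.2, 22.2 and 13.2 CPM in controls and 10.5, 9.49, 11 and 11.3 in MafLSEC-KO, a log2 fold change of -0.81 (standard error 0.185, adjusted p = 0.00511 by edgeR). The peak 197.1 kb upstream, at chr5:3146398-3147282, fell from 34.1, 30.7, 22 and 18.4 to 13.3, 14.7, 16.5 and 15, also by 0.81 on the log2 scale (standard error 0.185, adjusted p = 0.00511 by edgeR). In both the groups were separate, and control 4 was the lowest control. The other 3, in introns 12.2, 19.7 and 25.6 kb from the start, had log2 fold changes of -0.77, -0.75 and -0.68, and each lost its call under some alternatives (adjusted p up to 0.122). The MARE arm matches printed for Cdk6 lie in the upstream peak and in the last of these 3. The upstream peak and the peak 15.6 kb downstream both passed under all 14 alternatives, and the latter held no MARE arm in its centre.

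The promoter peak of Cdk6 was at 69.1 ± 8.44 and 62.5 ± 4.88 CPM. Over all 17 peaks Cdk6 gave a log2 fold change of -0.26 (edgeR adjusted p = 0.273), which passed under the replicate block (log2 -0.24, edgeR adjusted p = 0.00918). Ccnd3, which encodes cyclin D3, had 9 peaks and a log2 fold change of -0.08.

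Among the CDK inhibitors, Cdkn1c fell and the summed peaks of Cdkn1a, Cdkn1b and Cdkn2c were between 0.00 and 0.08. Cdkn1c (ENSMUSG00000037664) encodes p57, an inhibitor that keeps cells out of the cycle and is imprinted. Its 5 peaks summed to 58.1, 72.4, 64.2 and 95.2 CPM in controls and 50.1, 54.0, 52.3 and 54.0 in MafLSEC-KO. The groups did not overlap, but control 1 stood near the MafLSEC-KO libraries and control 4 far above them. The log2 fold change was -0.47 (standard error 0.137, adjusted p = 0.0456 by edgeR). The call was lost without control 2 or 4 or any 1 of the MafLSEC-KO libraries, with log2 fold changes from -0.56 to -0.31 and adjusted p up to 0.127.

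The distal sum of Cdkn1c fell, at -0.58 (standard error 0.166, adjusted p = 0.0316 by edgeR, up to 0.0965 with 1 library left out), and the promoter peak, at -0.11, did not pass. The only one called alone was 53.0 kb downstream at chr7:143407585-143408505, in an intron of Kcnq1, with a log2 fold change of -0.65 (standard error 0.203, adjusted p = 0.0347 by edgeR). Its groups overlapped, with controls at 19.9 to 39.2 CPM and MafLSEC-KO at 14.0 to 20.4. In Cdkn2c, which encodes the CDK4 and CDK6 inhibitor p18, a low exonic peak 4.0 kb downstream rose by log2 0.98 (standard error 0.266, adjusted p = 0.0163 by edgeR), from 3.02 to 6.05 CPM on average, while its promoter was at log2 0.02.

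None of the 5 E2F members passed the test when all peaks were summed by edgeR, and of their 27 tested peaks 3 were called higher and 3 lower, 11.1% each way beside 8.97% and 6.45% of all peaks. The DESeq2 test called E2f8 lower, and the block called E2f1 higher (log2 0.28, edgeR adjusted p = 0.0331) and E2f8 lower (-0.35, edgeR adjusted p = 0.00136). E2f3, which encodes an activating E2F, rose in its distal sum, and its promoter sum did not pass (log2 0.06). That sum joins 2 unlike peaks, one at log2 0.43 (31.3 ± 3.85 and 41.7 ± 6.69 CPM, edgeR adjusted p = 0.0502), close to the change of the distal sum, and the higher one at log2 -0.03. The distal sum was 47.8, 42.9, 45.9 and 42.9 CPM in controls and 63.0, 61.2, 61.4 and 64.0 in MafLSEC-KO. Within each group the libraries were close together, and the groups were well apart. The log2 fold change was 0.48 (standard error 0.0980, adjusted p = 0.00525 by edgeR), past the threshold under all 16 alternatives.

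The 2 promoter peaks of E2f3 together stood at 182 ± 29.7 and 189 ± 15.1 CPM. The promoter share went from 79.0%, 83.4%, 80.4% and 77.1% to 73.8%, 76.7%, 76.7% and 73.2%, a log2 ratio difference of -0.41 (standard error 0.125, adjusted p = 0.0207 by limma). That call was lost without control 2 or MafLSEC-KO 1 or 4 (adjusted p up to 0.114). In the intron peak at chr13:29925685-29926763, 58.2 kb downstream, controls held 9.45, 9.33, 12.4 and 7.91 CPM and MafLSEC-KO 26.4, 19.8, 21.6 and 20.5, a log2 fold change of 1.19 (standard error 0.178, adjusted p = 0.000139 by edgeR). Another intron peak 5.3 kb downstream rose by log2 0.89 (standard error 0.219, adjusted p = 0.00883 by edgeR), and the intron peak 25.8 kb downstream stood at 29.1 ± 0.630 and 29.2 ± 2.4 CPM.

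E2f7 and E2f8 encode the atypical E2F factors, which repress E2F targets late in the cycle. E2f7 was the only member with called peaks in both directions. Its intron peak 15.3 kb downstream, at chr10:110760594-110760948, fell from 11.3, 10.9, 8.21 and 11.4 CPM to 4.13, 5.07, 4.49 and 1.62, by 1.47 on the log2 scale (standard error 0.278, adjusted p = 0.00116 by edgeR). This was the largest fall among the member peaks. A peak 17.4 kb upstream had a log2 fold change of -0.65 (standard error 0.192, adjusted p = 0.0257 by edgeR), and one 72.8 kb downstream had 0.74 (standard error 0.192, adjusted p = 0.0118 by edgeR). The sum of its 8 peaks was at log2 0.13 and did not pass.

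E2f8 had 6 peaks, none within 1000 bases of its start. The sum was 86.0, 80.8, 97.0 and 82.2 CPM in controls and 67.9, 69.7, 75.4 and 58.6 in MafLSEC-KO. The groups did not overlap, but the log2 fold change of -0.35 (SE 0.105) missed the threshold (edgeR adjusted p = 0.0531). An intron peak 4.4 kb downstream fell by 0.59 on the log2 scale (standard error 0.176, adjusted p = 0.0278 by edgeR, up to 0.0812 with 1 library left out). E2f1 and E2f2, both activators, gave summed log2 fold changes of 0.28 and -0.17.

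Of the S phase cyclins and their kinase, none passed the edgeR test over summed peaks. Cyclin E2, encoded by Ccne2, had the smallest p. Its single peak spans the start at chr4:11190497-11192354 and held, on the scale of the gene sums, 53.3, 46.1, 53.4 and 54.6 CPM in controls and 69.4, 68.9, 71.6 and 54.0 in MafLSEC-KO. MafLSEC-KO 4 fell among the controls and the other 3 stood above them. The sum gave log2 0.35 (standard error 0.113, adjusted p = 0.0736 by edgeR), and under the block 0.34 (edgeR adjusted p = 0.00751). It passed under 5 of 15 alternatives, which included the DESeq2 test and log2 depth as a covariate. The same peak, tested among all peaks with their own scaling, was called (log2 0.37, SE 0.119, edgeR adjusted p = 0.0389), and with 1 library left out the adjusted p reached 0.148. Ccne1, the other E-type cyclin gene, was at -0.21 and passed under the block (-0.20, edgeR adjusted p = 0.038). Ccna2, the gene of cyclin A2, was at 0.03 and Cdk2, which partners both cyclins, at 0.11.

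Of the 9 genes of DNA replication and nucleotide supply, 1 rose, Rrm2. Rrm2 (ENSMUSG00000020649) encodes the small subunit of ribonucleotide reductase, the enzyme that makes deoxyribonucleotides. Its 1 peak lies at chr12:24746841-24747328, in an intergenic region 38.8 kb downstream, and no peak stood at its start. The counts were 24, 27, 18 and 40 reads in controls and 63, 88, 93 and 84 in MafLSEC-KO, or 4.43, 3.30, 3.20 and 3.07 against 9.28, 7.95, 9.59 and 7.17 CPM. Every MafLSEC-KO library exceeded every control. The log2 fold change was 1.29 (standard error 0.229, adjusted p = 0.00313 by edgeR) and lay between 1.22 and 1.41 over 15 alternatives, all past the threshold. This was the largest change of any member, and the region is faint, with 437 reads over the 8 libraries. In GENCODE vM21 the next protein-coding start, that of Cys1, lies 65271 bases from the centre of the peak.

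The replicative helicase genes did not pass, with summed log2 fold changes of -0.27 for Mcm2, -0.12 for Mcm3, -0.11 for Mcm4, 0.17 for Mcm5, 0.06 for Mcm6 and 0.08 for Mcm7. The peaks of Mcm4 and Mcm7 also cover the starts of Prkdc and Ap4m1, so their reads cannot be given to one gene. Pcna, the sliding clamp of DNA polymerases, was at 0.06. Rrm1, the large subunit of ribonucleotide reductase, was at 0.10. A peak 45.6 kb from the Rrm1 start, inside Stim1, rose by log2 0.70 (standard error 0.225, adjusted p = 0.0411 by edgeR), its groups overlapped, and the start of Stim1 lay closer.

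Of the 5 measured regulators of mitotic entry, Plk1 rose. Plk1 (ENSMUSG00000030867) encodes polo-like kinase 1, which drives entry into mitosis and spindle assembly. Its promoter peak, chr7:122158754-122159813, covers the whole upstream sequence printed above. It held 16.5, 15.5, 19.9 and 17.2 CPM in controls and 30.2, 31.3, 30.1 and 33.1 in MafLSEC-KO. The 4 libraries of each group were close together and the groups were far apart. The promoter sum gave log2 0.86 (standard error 0.132, adjusted p = 0.00078 by edgeR), from 0.79 to 0.93 over 16 alternatives, all past the threshold. With its faint second peak, which lies in an intron of Dctn5, the sum was at log2 0.71 (standard error 0.131, adjusted p = 0.00400 by edgeR).

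The promoter share of Plk1 reads was 82.0%, 94.0%, 91.2% and 95% in controls and 98.1%, 97.7%, 99.7% and 98.7% in MafLSEC-KO, and the groups did not overlap. The log2 ratio was higher by 2.04 in MafLSEC-KO, and by 1.39 with a pseudocount of 2 CPM. These are given as a description, because the distal peak was too low to be tested as a sum, with 0.104 to 0.737 CPM in MafLSEC-KO, and the ratio was not fitted without control 1 or without both controls 1 and 3. The other mitotic regulators did not pass when their peaks were summed. Cdk1, the mitotic kinase, was at log2 0.10, its cyclins Ccnb1 and Ccnb2 at 0.03 and 0.09, and Aurkb, a kinase of chromosome segregation, at 0.06. The Cdk1 peak 728 bases past the start, whose region spans that start, was called higher (log2 0.32, SE 0.106, edgeR adjusted p = 0.0463), from 55.4 to 64.1 CPM in controls and from 73.1 to 76.5 in MafLSEC-KO. With 1 library left out in turn it passed only without control 1, and the adjusted p reached 0.117.

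Of 6 spindle, chromosome and kinetochore genes, Mki67 rose, and its called peaks lay away from the promoter. Mki67 (ENSMUSG00000031004) encodes Ki-67, a protein on the surface of mitotic chromosomes and the usual marker of cycling cells. Its 10 peaks summed to 122, 117, 134 and 93.6 CPM in controls and 162, 154, 158 and 156 in MafLSEC-KO. The groups did not overlap, and control 4 was the lowest library. The log2 fold change was 0.44 (standard error 0.105, adjusted p = 0.0171 by edgeR), and the call was lost without control 2 or MafLSEC-KO 1, 2 or 3 (adjusted p up to 0.0613). The distal sum, which here holds all 10 peaks since HOMER classed the one at the start as 5′ UTR, gave 0.46 (standard error 0.106, adjusted p = 0.00967 by edgeR) and passed under all 16 alternatives.

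The Mki67 peak over the start, chr7:135715473-135717003, held 41.4, 40.3, 43.0 and 31.0 CPM in controls and 41.5, 39.9, 47.7 and 41.8 in MafLSEC-KO. The groups overlapped (log2 0.14, SE 0.130, edgeR adjusted p = 0.518). The called peaks lay upstream, in intergenic DNA. The peak 77.8 kb upstream, chr7:135793043-135795415, went from 12.0, 14.4, 19.9 and 11.7 to 30.5, 28.1, 28.5 and 32.2 CPM (log2 1.05, SE 0.170, edgeR adjusted p = 0.000285). The peak 19.8 kb upstream, chr7:135735547-135736754, went from 35.4, 38.8, 35.5 and 33.7 to 48.8, 56.3, 49.0 and 50.1 (log2 0.51, SE 0.116, edgeR adjusted p = 0.00468). Both were separate between the groups. A faint peak 120.9 kb upstream had log2 1.15 (standard error 0.366, adjusted p = 0.0386 by edgeR), its groups overlapped, and the adjusted p reached 0.128 with 1 library left out.

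The other genes of this class did not pass. The log2 fold change of the sum was -0.21 for Bub1, a spindle checkpoint kinase, 0.18 for Birc5, which encodes survivin, 0.04 for Cenpf, a kinetochore protein, -0.01 for Tpx2, a spindle assembly factor, and 0.03 for Top2a, the topoisomerase of mitotic chromosomes.

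Levels near the start differed far more among genes than between the groups. On the scale of CPM per kb of peak, the 39 member peaks within 1000 bases of a start had a median of 33.1 in controls and 38.6 in MafLSEC-KO. The median of all 12098 such peaks was 27.5 in controls and is not given for MafLSEC-KO. Taken peak by peak, the median log2 fold change was 0.08 over the 39, beside 0.04 over all such peaks tested. The highest in controls was one of the 2 E2f3 promoter peaks, at 143 ± 25.1 (SD, n = 4), followed by Mcm4 at 121 ± 15 and by Mcm3 at 98.1 ± 16.6. E2f3 and Mcm4 differed by less than the SD of E2f3, whereas Mcm4 and Mcm3 differed by more than the SD of either. Mcm4, whose peak includes the start of Prkdc, stood at 114 ± 13.7 in MafLSEC-KO.

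At the other end, Bub1 was lowest at 13.0 ± 1.94, next to an E2f2 peak at 13.2 ± 2.87 and Plk1 at 16.3 ± 1.77. Plk1 stood at percentile 23.6 of all peaks near a start in controls. It reached 29.5 ± 1.31 in MafLSEC-KO. Mki67 lay near the middle, at 25.4 ± 3.52 and 27.9 ± 2.25.

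**Figure D4:**
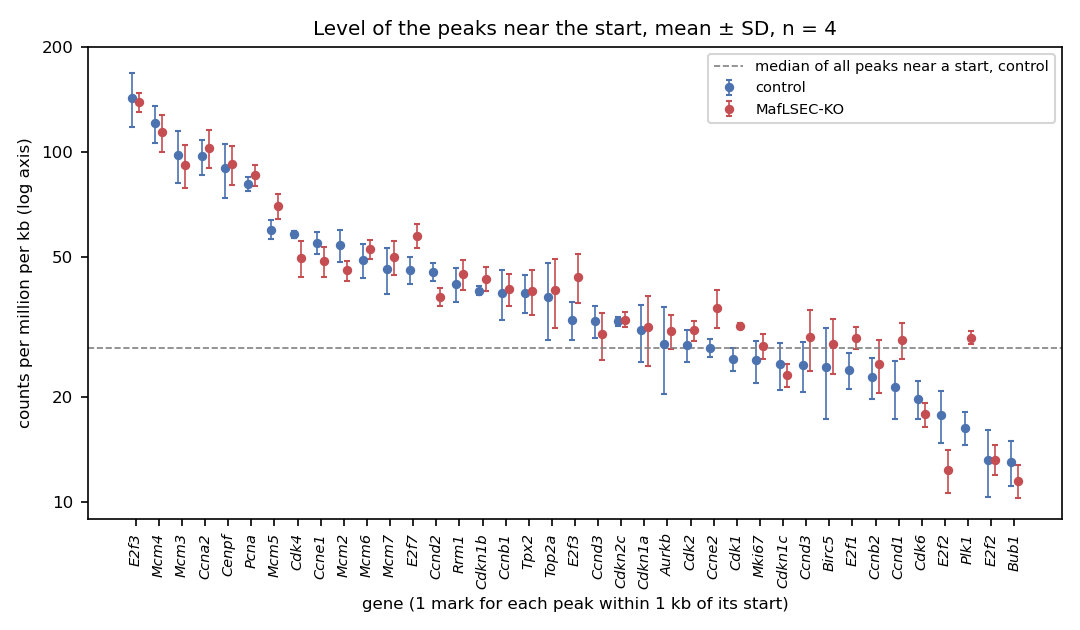
Level in CPM per kb of each of the 39 member peaks within 1 kb of a start, as mean and SD of 4 libraries, on a log axis, ordered by the control level, with controls in blue, MafLSEC-KO in red and the control median of all such peaks as a dashed line at 27.5. The order runs from E2f3 at 143 to Bub1 at 13.0, and Plk1 is where the 2 groups stand farthest apart.

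Other cell cycle genes were counted in 3 lists. The edgeR counts over all peaks are to be read beside the 5.65% of all genes called higher and the 4.05% called lower. DESeq2 called 1308 of all genes higher and 1048 lower, and for counts at an unadjusted p no share over all genes is given. Of 32 measured S phase genes outside the 40, none was called higher by edgeR or DESeq2 or at an unadjusted p under 0.05. By edgeR 1 was lower, the origin firing factor Mcm10, while DESeq2 called 2 lower and 3 were lower at an unadjusted p under 0.05. The 5 Mcm10 peaks summed to 95.8, 93.0, 97.1 and 80.6 CPM in controls and 74.6, 64.5, 67.6 and 70.2 in MafLSEC-KO, without overlap (log2 -0.40, SE 0.0963, edgeR adjusted p = 0.0174). The distal sums of this list gave 1 higher and 3 lower of 24 tested, beside 8.19% and 5.49% of all distal sums. Its promoter sums gave none either way of 22, beside 3.55% and 0.98%.

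Of 34 measured mitosis genes, none was called higher by edgeR, 1 by DESeq2 and 1 at an unadjusted p under 0.05. By each of these 1 was lower, and the one called by edgeR was Racgap1, a factor of cytokinesis (log2 -0.60, SE 0.160, edgeR adjusted p = 0.0316). Of 27 measured control genes, edgeR called 1 higher, the growth regulator Myc (log2 0.38, SE 0.105, edgeR adjusted p = 0.0377). DESeq2 called 2 higher, and 6 were higher at an unadjusted p under 0.05, while none was lower by edgeR, by DESeq2 or at an unadjusted p under 0.05. The median log2 fold changes of the 3 lists were -0.09, 0.05 and 0.02, beside -0.02 for all genes.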

How the data were processed

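The authors isolated LSEC, tagmented them with Tn5, aligned reads to mm10, removed duplicates, called peaks with MACS2, merged and annotated them (HOMER 4.11) and counted reads with bedtools 2.30.0. Whether reads were shifted for Tn5 is not given in the sources used here. The deposited table held raw counts per peak, a signal that the authors made by multiplying each library's counts by 1 factor, and RPKM values normalised by the authors to depth and peak width. Only the raw counts were analysed. The authors' columns of fold changes and p-values were not used. The 68 peaks with no gene name (0.0775% of counts) were left out of gene sums.

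The members and gene lists were chosen with earlier results of these data known. Counts were summed per gene over all peaks, over peaks of HOMER's promoter class and over all others. Peaks and sums were tested across the whole table with edgeR 4.0.16 in R 4.3.3 (TMM scaling, filterByExpr, quasi-likelihood test). Promoter and distal sums used the library sizes of all peaks. The promoter to distal ratio, log2 with 0.5 CPM added to each sum, was tested with limma 3.58.1. P-values were adjusted by Benjamini-Hochberg over all features, with a threshold of 0.05. CPM values use TMM library sizes. Named were all members and called peaks, and for other lists each gene called. Alternatives were DESeq2 1.42.0 size factors or test, no filter, a replicate block, log2 depth as a covariate, libraries left out, the highest peak alone, promoters by distance, and a pseudocount of 2 CPM. The tests were checked on simulated data. Replicate numbers are shared by both groups, and deviations of same-numbered libraries from their group means correlated at 0.21, 0.18, 0.40 and 0.54 over 17745 genes. Control 1 correlated more with MafLSEC-KO 3 (0.38) than with its own number, as did MafLSEC-KO 2 with control 4 (0.24). Some pairs of unlike number were negative, down to -0.50. These values do not show that the numbers mark pairs. The blocked fit is given where it changes a call. Promoters came from RefSeq (GRCm38.p6) and gene models from GENCODE vM21. Depth limits precision at faint peaks.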

Additional observations from a re-analysis of the deposited data

Results flagged for a closer look

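In 9 of 124 groups of 4 libraries, 1 library stood apart from the other 3 by Dixon's test at the 95% level. Chance gives about 1 group in 20 where groups are independent. Here some groups hold the same reads, as the sum and the single peak of Ccne2 do, so 9 of 124 cannot be set against that rate. The summed CPM of Ccne2, a cyclin E gene, was 46.1 in control 2 against 53.3 to 54.6 in the other controls, and 54.0 in MafLSEC-KO 4 against 68.9 to 71.6. Its single peak, on the scale of all peaks, gave 46.9 in control 2 against 52.4 to 53.5, and 54.0 in MafLSEC-KO 4 against 69.5 to 72.6. Mcm3, a helicase gene, was at 109 CPM in control 4 against 138 to 144. Rrm2, the ribonucleotide reductase gene, was at 4.43 CPM in control 1 against 3.07 to 3.30. Ccnb1, the cyclin B1 gene, was at 37.6 CPM in MafLSEC-KO 4 against 46.0 to 47.4. The E2f7 peak 15.3 kb downstream of the start held 8.21 CPM in control 3 against 10.9 to 11.4. The Mki67 peak 19.8 kb upstream held 56.3 CPM in MafLSEC-KO 2 against 48.8 to 50.1.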

How the results depend on the processing

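No called value changed sign under any alternative run. The replicate block gave 4 members lower over all peaks, 5 higher and 2 lower at promoters, 3 lower at distal peaks, 27 peaks higher and 15 lower, and 2 ratios higher. Over all genes it called 2158 higher and 1917 lower, against 1002 and 718 without it. The block changed no call of a member sum or ratio beyond those given in the report, and not every library correlated best with its own number. Log2 depth as a covariate gave 3 members lower over all peaks, 3 higher at promoters and 2 lower at distal peaks. It gave 24 peaks higher and 14 lower, 3 ratios higher, and 2312 genes higher and 1975 lower. For this covariate, shares over all promoter sums, distal sums, peaks and ratios are not given. The DESeq2 test gave 5 members higher and 2 lower over all peaks, beside 1308 and 1048 of all genes. It gave 2 members higher at promoters and 2 lower at distal peaks, with no such shares given. No filter on low counts gave 2 members lower over all peaks, beside 775 of all genes. Promoters set by distance gave 2 ratios higher and 4 lower. Without controls 1 and 3 the gene counts were 1626 and 1290. Scaling on the promoter or distal sums alone, chosen after seeing the data, left the counts of members as they were. Over fits leaving out 1 library, members called ranged from 2 to 6 higher and 0 to 3 lower over all peaks, 1 to 4 higher at promoters and 0 to 4 lower at distal peaks, with 8 to 18 peaks higher, 3 to 12 peaks lower and 1 to 3 ratios lower, while genes ranged from 502 to 1471 higher and from 401 to 1356 lower. The causes were not tested. Depth limits the faint peaks, such as that of Rrm2 with 437 reads over 8 libraries.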
